A study of Mus musculus with 21 samples.

Results

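The effect of the Spo11-Cre transgene was examined in mouse oocytes that carried 1 floxed and 1 deleted allele of Kif11. All libraries labelled fl/del Spo11-Cre (4) were compared with all those labelled fl/del without Cre (4), which are 8 of the 21 poly(A) RNA libraries of the study. The deleted allele was present in both groups. By their genotype labels the compared oocytes differed by the Cre transgene and, once Cre had acted, by the floxed allele that it removes. The females were 3 to 4 months old and gave fully grown oocytes at the germinal vesicle stage 48 h after hormone injection. The paper names a C57BL/6 background for the mice that were genetically engineered. It does not give the background of the oocyte donors separately. Each library held 3 oocytes, and a mouse gave 1 or 2 libraries. In each group the libraries carried 2 name prefixes, with 2 libraries under each, and no prefix occurred in both groups. If a prefix stands for a mouse, each group came from 2 females, and the p-values then measure in part the spread between libraries of the same animal.

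KIF11 is a kinesin that crosslinks antiparallel microtubules and pushes them apart, and it is needed to build a bipolar spindle. Fully grown oocytes store the mRNA and protein that they use during the meiotic divisions, and they transcribe very little by that stage. Spo11 encodes the enzyme that makes the DNA breaks of meiotic recombination. The Spo11-Cre transgene places Cre under the control of that gene, so that recombination of a floxed allele begins early in meiotic prophase and long before the oocyte grows.

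Libraries of fl/del oocytes held 7205010 to 16836618 counts, and those of fl/del Spo11-Cre oocytes held 13155893 to 17668498. The lowest total belonged to fl/del replicate 3, which also stood apart from all 16 other libraries of the Spo11-Cre background on the first axis of a multidimensional scaling of the counts. Levels are given in CPM, the reads of a gene per 1000000 counted in its library. The sum of 15 oocyte markers ran from 33181 to 35921 CPM without Cre and from 28008 to 34238 CPM with Cre. Of the 15, 12 had a log2 fold change below 0 with Cre. The sum of 21 granulosa and cumulus cell markers ran from 101.6 to 117.5 CPM without Cre and from 95.6 to 113.8 CPM with Cre, and that of 10 stroma and endothelium markers from 70.4 to 85.4 CPM and from 63.9 to 83.4 CPM, so the groups overlapped in all 3. At 0 in all 8 libraries were 5 of the 21 and 4 of the 10. Most of the granulosa and cumulus sum came from Cyp19a1 (60.2 to 77.2 CPM) and Nr5a2 (22.9 to 44.8 CPM). Most of the stroma and endothelium sum came from Myh11 (35.4 to 58.2 CPM) and Pecam1 (19.4 to 26.7 CPM). Of 11 blood and immune cell markers, 4 were at 0 in all 8 libraries, and the sum did not exceed 13.9 CPM in any of them. In these bulk samples less RNA per oocyte and fewer oocytes that express a gene cannot be told apart. The letters in the library names were B for all 4 libraries with Cre and A for all 4 without, and what the letters stand for is not given in the sources used here. An effect of whatever they mark and an effect of Cre cannot be told apart.

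Kif11 (ENSMUSG00000012443, chr19:37376403-37421859 in GRCm38, plus strand) checked the genotypes. Counted over all its exons, it was at 12.9, 12.7, 7.49 and 14.6 CPM in the fl/del libraries and at 2.70, 1.53, 1.08 and 1.82 CPM in the fl/del Spo11-Cre libraries. The groups did not overlap, and the mean with Cre (1.78 ± 0.685, SD, n = 4) was 15% of that without (11.9 ± 3.06, n = 4). The log2 fold change was -2.79 (SE 0.25), with an adjusted p of 7.56e-12 in edgeR's quasi-likelihood test with Benjamini-Hochberg adjustment over 22383 genes. The two-sided exact permutation p of 0.0286 is the smallest that 4 libraries against 4 can give. Counting error alone gave a 95% interval from 11.1% to 16.9% for the pooled level (Clopper-Pearson).

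Exon 1, which the authors counted as a stand-in for full-length Kif11 mRNA, held few reads. It gave 10, 8, 1 and 5 counts in fl/del and 0, 1, 0 and 2 counts in fl/del Spo11-Cre. The pooled level with Cre was 11.5% of that without (95% interval for counting error 2.21% to 37.8%), and the log2 fold change was -2.87 (SE 0.90). This difference did not pass the test over all genes (adjusted p = 0.238) or the exact permutation test (p = 0.0571). The last exon, exon 22, gave 24, 30, 3 and 18 counts in fl/del and 8, 10, 6 and 6 counts in fl/del Spo11-Cre. Its log2 fold change was -1.38 (SE 0.45, adjusted p = 0.276, exact permutation p = 0.114), and its pooled level with Cre was 36.7% of that without (23.2% to 56.8%). Fold changes of exon 22 and exon 1 were not tested against each other.

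Across the genome few genes differed. Of 22383 genes tested, 54 passed an adjusted p of 0.05, which is 0.241% (0.156% higher and 0.0849% lower). With Cre, 35 were higher and 19 were lower, and the log2 fold change of the median gene was 0.0085. Most differences were small, with 35 of the 54 genes below an absolute log2 fold change of 1. The called genes were well covered, with a median level of 52.5 CPM against 2.53 CPM for all genes tested. Annotation placed 46 of them among protein-coding genes. In 50 of the 54 the CPM values of the groups did not overlap, which held for 3.65% of all genes tested. The genes were called from these same libraries, so the lack of overlap is not separate support. Without fl/del replicate 3 the test called 24 higher and 15 lower genes, and 37 of these 39 were among the 54. Leaving out both libraries of a name prefix gave between 27 and 94 called genes, of which 23 to 34 were among the 54. Of the 54 genes, 12 were called under each alternative that gave them a value (22 alternatives, 21 for Kif11), and 12 were called under fewer than 11 alternatives. The stable set was Rae1, Rbm38, Crnkl1, Naa20, Ada, Cul1, Ezh2, Akr1b8, Dhx29, Timd4, Gm8817 and Kif11.

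**Figure D1:**
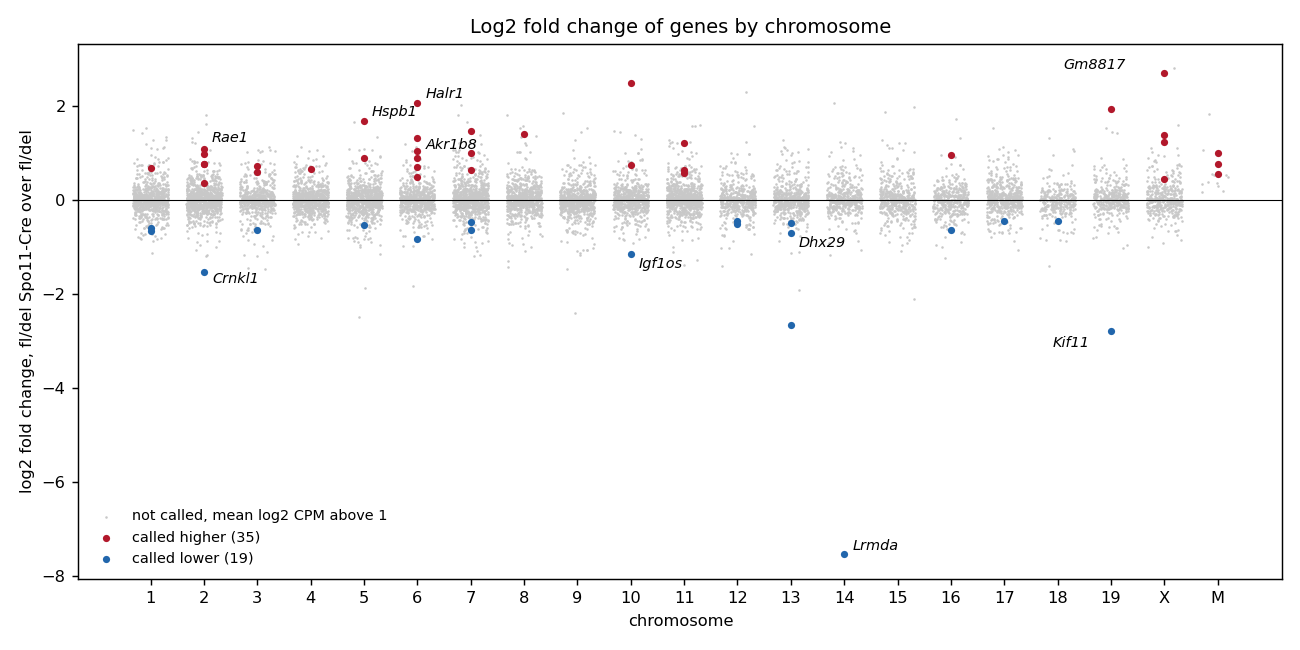
Log2 fold change (fl/del Spo11-Cre over fl/del) of each gene, grouped by chromosome with random horizontal spread. Grey points are genes that were not called and whose mean log2 CPM is above 1, red points the 35 genes called higher, and blue points the 19 called lower. Kif11 on chromosome 19 stands at -2.79, and Lrmda on chromosome 14, whose value comes from 2 of the 4 fl/del libraries, at -7.54.

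The called genes were spread over 17 autosomes, the X chromosome and the mitochondrial genome. Chromosome 6 held 7 of them among 1159 genes tested (0.604%), chromosome 2 held 6 of 1615 (0.372%), chromosome 7 held 5 of 1724 (0.290%) and chromosome X held 4 of 849, all of them higher with Cre. Chromosomes 9 and 15 held none. The mitochondrial genome held 3 of 27. Of all 54 called genes 13 lay on chromosome 2 or 6, and of the 12 genes in the stable set 8 did. These chromosomes held 1615 and 1159 of the 22383 genes tested. Of the 8 stable genes, 6 formed 3 pairs of immediate neighbours. Each of these 3 pairs is described below with the genes around it.

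Rae1 and Rbm38 lie directly downstream of the Spo11 gene, in the same orientation. Spo11 occupies chr2:172977700-172993576, Rae1 chr2:173000117-173015739 and Rbm38 chr2:173020498-173034734, all on the plus strand, with 6540 bp between Spo11 and Rae1 and 4758 bp between Rae1 and Rbm38. Rae1 encodes an mRNA export factor that binds the nuclear pore and also acts on the spindle. Its level was 187, 169.9, 184 and 213 CPM in fl/del and 431, 344, 410.4 and 432 CPM in fl/del Spo11-Cre. All libraries with Cre were above all without, and the mean rose 2.15-fold (log2 fold change 1.08, SE 0.09, adjusted p = 6.42e-13), the lowest p of any gene. Rbm38 encodes an RNA-binding protein that stabilizes the mRNA of the cell cycle inhibitor p21. It was at 90.2, 87.1, 90.5 and 84.3 CPM without Cre and at 175, 193, 154 and 178 CPM with Cre, again without overlap. The mean rose 1.99-fold (log2 fold change 0.97, SE 0.12, adjusted p = 3.67e-07).

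Spo11 itself had no count in any of the 17 libraries of the Spo11-Cre background, so it was not tested. A total of 0 counts allows, at 3 counts of the total, a level of up to 0.0531 CPM over the fl/del libraries and 0.0487 CPM over the fl/del Spo11-Cre libraries. Within 250 kb of the start of Spo11, 5 genes were tested, and only Rae1 and Rbm38 were called. The other 3 were at low levels in the 8 libraries compared. Bmp7, which encodes a secreted growth factor upstream of Spo11, was at most at 2.22 CPM there. Zbp1, a sensor of nucleic acids, reached at most 1.47 CPM. Pmepa1, a membrane protein that dampens TGF-beta signalling, reached at most 0.304 CPM. None of them passed the test (lowest adjusted p 0.635). Within 1000 kb, 13 further genes with a mean log2 CPM above 1 had log2 fold changes between -0.70 and 0.69 with a median of -0.10, and none was called.

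Naa20 and Crnkl1 form the next pair, also on chromosome 2, and they changed in opposite directions. Their 3' ends face each other, since Naa20 (chr2:145902099-145916425) is on the plus strand and Crnkl1 (chr2:145917479-145935014) on the minus strand, with 1053 bp between them. Naa20 encodes the catalytic subunit of the NatB acetyltransferase, which modifies the N-termini of proteins. It was at 104, 113, 122 and 125 CPM in fl/del and at 202, 192, 177 and 229 CPM in fl/del Spo11-Cre, and it rose 1.73-fold (log2 fold change 0.77, SE 0.11, adjusted p = 6.0e-06). Crnkl1 encodes a core factor of the spliceosome. It was at 477, 451, 416 and 428 CPM without Cre and at 143, 139.9, 175 and 166 CPM with Cre. The groups were far apart relative to their spread, and Crnkl1 fell to 35.3% (log2 fold change -1.53, SE 0.18, adjusted p = 6.91e-08). The first 231 bp of Crnkl1 overlap Cfap61 on the other strand, and the preparation does not mark the strand, so reads of that stretch cannot be told apart. The 7 other genes within 1000 kb at a mean log2 CPM above 1 had log2 fold changes from -0.36 to 0.20, and none was called.

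Cul1 and Ezh2 on chromosome 6 were the third pair. They also face each other with their 3' ends, Cul1 at chr6:47453398-47526139 on the plus strand and Ezh2 at chr6:47530139-47595341 on the minus strand, with 3999 bp between them. Cul1 encodes the scaffold of the SCF ubiquitin ligases, which act on cell cycle regulators and many other proteins. Its level was 1421, 1408, 1386 and 1375 CPM in fl/del and 1973, 1944, 2117 and 1903 CPM in fl/del Spo11-Cre. The rise was modest, 1.42-fold, but several times the spread within either group (log2 fold change 0.49, SE 0.07, adjusted p = 2.49e-05). Ezh2 encodes the methyltransferase of the Polycomb complex that marks histone H3 at lysine 27. It was at 279.9, 290.2, 266 and 310.3 CPM without Cre and at 457, 455, 472 and 492 CPM with Cre, a 1.64-fold rise without overlap (log2 fold change 0.69, SE 0.08, adjusted p = 9.01e-08). Another 12 genes within 1000 kb of the start of Ezh2, at a mean log2 CPM above 1, ranged from -1.83 to 0.72 with a median of -0.01, and none was called (lowest adjusted p 0.279).

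**Figure D2:**
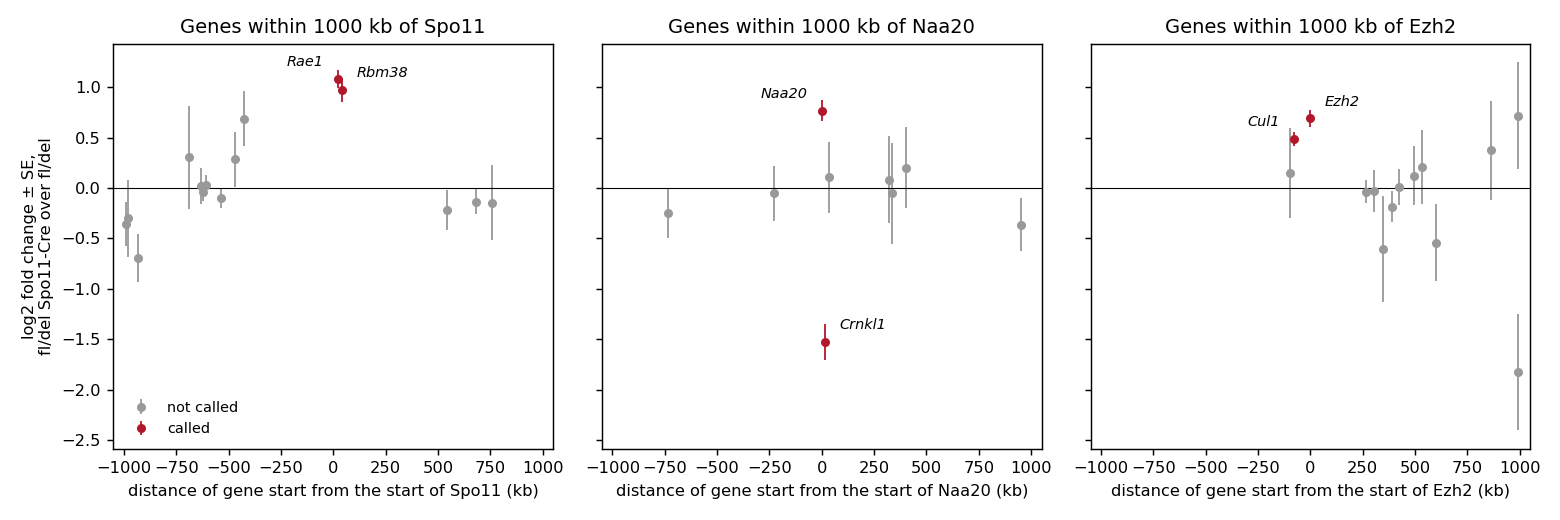
Log2 fold change with SE (fl/del Spo11-Cre over fl/del) of genes with a mean log2 CPM above 1, by the distance of the gene start from the start of Spo11, Naa20 or Ezh2 in kb. Red points are called genes and grey points are not. The windows of Naa20 and Ezh2 were centred on a called gene beside another, so 2 called genes at their centre follow from that choice. The window of Spo11 was not centred on a called gene, and its 2 called genes lie close to the centre. Crnkl1 is the only one of the 6 that is lower with Cre.

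The remaining stable genes had no called neighbour within 1000 kb. Akr1b8 (chr6:34354119-34368463, plus strand), an aldo-keto reductase that detoxifies aldehydes, lies 13.1 Mb from Cul1. It was at 60.4, 62.0, 46.2 and 60.8 CPM without Cre and at 99.8, 119, 107 and 106 CPM with Cre, a 1.88-fold rise (log2 fold change 0.89, SE 0.12, adjusted p = 4.6e-06). Ada (chr2:163726584-163750239, minus strand) encodes adenosine deaminase, which converts adenosine to inosine. It rose 1.72-fold from 102, 89.995, 83.6 and 117 CPM to 153, 163, 202 and 158 CPM (log2 fold change 0.76, SE 0.11, adjusted p = 4.6e-06). Akr1b8 and Ada do not fall under the rule by which genes were named, and neither do Timd4 and Zcchc7; these 4 were singled out after their values were seen, the first 3 because every alternative called them. In Akr1b8 and Ada alike the lowest library with Cre was above the highest without.

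Dhx29 (chr13:112927454-112969432, plus strand) encodes a helicase that helps ribosomes to scan structured mRNAs. It was at 71.7, 72.8, 70.2 and 74.5 CPM in fl/del and at 43.1, 42.3, 49.8 and 43.6 CPM in fl/del Spo11-Cre. The mean fell to 61.8% (log2 fold change -0.71, SE 0.12, adjusted p = 0.000343). Timd4 (chr11:46810800-46844332, plus strand), a receptor for phosphatidylserine that macrophages use to take up dying cells, rose 1.57-fold. Its libraries were at 49.4, 62.1, 59.4 and 57.0 CPM without Cre and at 91.2, 89.8, 90.3 and 86.7 CPM with Cre (log2 fold change 0.63, SE 0.11, adjusted p = 0.00074). Blood and immune cell markers summed to between 7.61 and 11.7 CPM without Cre and between 8.59 and 13.9 CPM with Cre. Most of that sum was H2-Aa (7.23 to 13.9 CPM), and the source of the Timd4 reads was not tested. Zcchc7 (chr4:44755877-44932215, plus strand), part of a nuclear complex that adds short tails to RNA for its decay, rose 1.60-fold from between 56.2 and 65.8 CPM to between 86.0 and 112 CPM (adjusted p = 0.000351). It missed the threshold when both libraries of 1 prefix with Cre were left out (highest adjusted p 0.0695).

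Gm8817, a long intergenic non-coding RNA on the X chromosome (chrX:167063194-167070380, minus strand), had the largest increase of the 35. Its level without Cre was uneven, at 6.27, 0.179, 0.278 and 3.27 CPM, and with Cre it was 12.2, 17, 15.5 and 23.9 CPM. The groups did not overlap, and the mean rose 6.86-fold (log2 fold change 2.68, SE 0.43, adjusted p = 0.000117). Of the other 3 called X-linked genes, Bcor, a corepressor that recruits a Polycomb complex, rose 2.57-fold (adjusted p = 0.0214), and Ebp, an isomerase of cholesterol synthesis, rose 2.37-fold (adjusted p = 0.0143). Idh3g, a subunit of the isocitrate dehydrogenase of the citric acid cycle that was named after its value was seen, rose 1.37-fold (adjusted p = 0.0335). Bcor, Ebp and Idh3g were lost under 8, 6 and 13 alternatives.

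**Figure D3:**
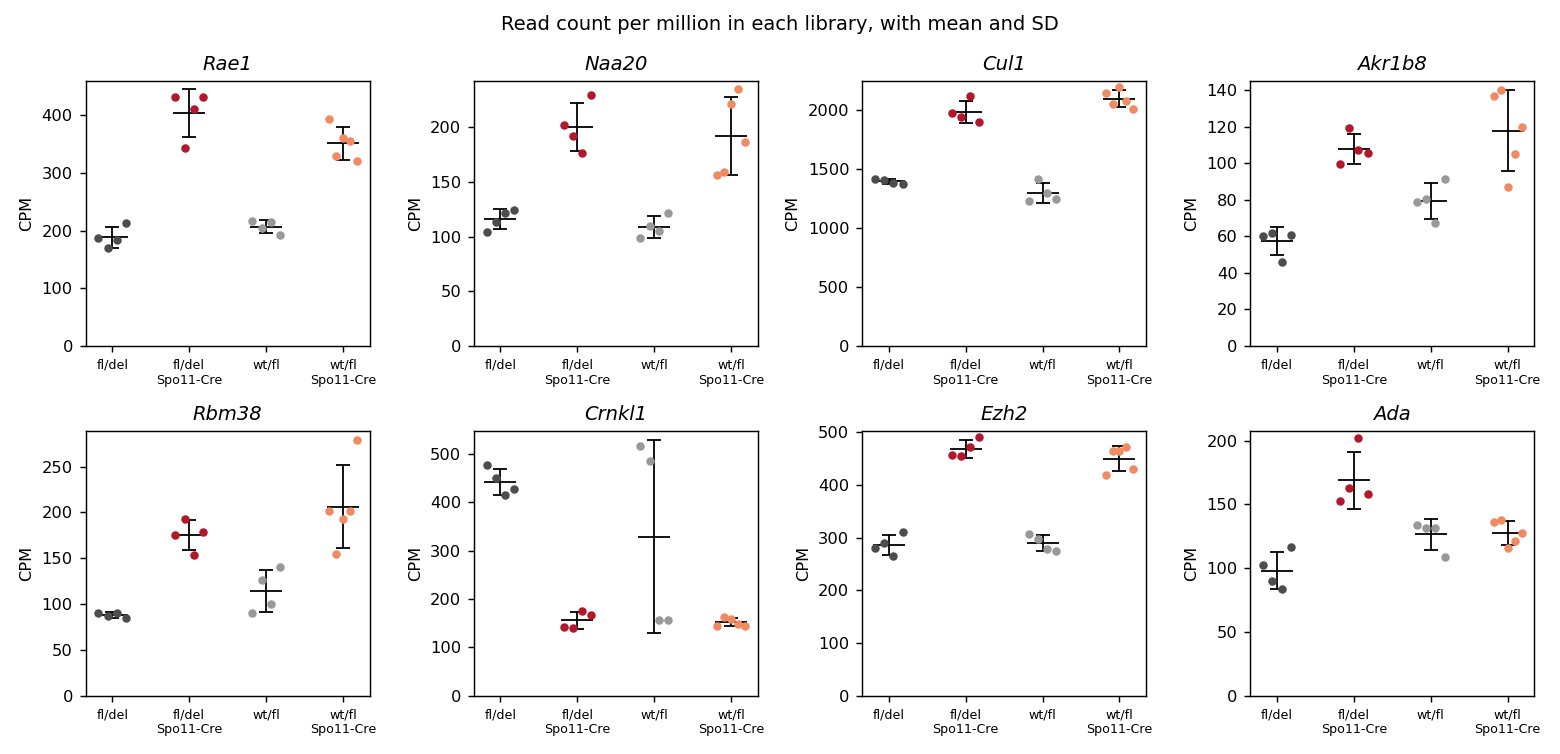
Level in CPM of Rae1, Rbm38, Naa20, Crnkl1, Cul1, Ezh2, Akr1b8 and Ada in each library (points), with the mean and SD (bars), in fl/del (4), fl/del Spo11-Cre (4), wt/fl (4) and wt/fl Spo11-Cre (5). In all 8 panels the fl/del groups are separate. For Crnkl1, 2 of the wt/fl libraries are at the level of the Cre libraries, and for Ada the wt/fl groups coincide.

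Among the other genes that rose was the stress gene Hspb1. It encodes a small heat shock protein and was at 6.27, 6.20, 4.16 and 8.55 CPM in fl/del and at 23.5, 20.8, 13.1 and 25.8 CPM in fl/del Spo11-Cre. The increase was 3.30-fold (log2 fold change 1.68, SE 0.28, adjusted p = 0.000351), and 21 of 22 alternatives called it. Kbtbd11, which encodes a BTB and kelch domain protein, rose 2.64-fold from 7.42, 8.17, 8.88 and 3.33 CPM to 17.4, 23.5, 12.4 and 19.99 CPM (adjusted p = 0.000644). Low transcripts that rose included Gm10778 (5.63-fold), the non-coding Halr1 near the Hoxa cluster (4.15-fold), Syt12, a synaptotagmin (3.97-fold), Tmem176b, a membrane protein (2.55-fold), and Krt25, a keratin of the hair follicle (2.32-fold). Their means with Cre were 10.5, 7.21, 7.87, 11.3 and 21.9 CPM, and each was lost under 6 or more alternatives. The abundant Med22, a subunit of the Mediator complex, rose 1.30-fold, from between 241 and 253 CPM to between 299 and 338 CPM, and was called under 8 of 22 alternatives (adjusted p = 0.0363).

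Zscan4d and Zscan4-ps1 were a further pair of neighbouring genes that rose together, with 96.2 kb between their starts on chromosome 7. Zscan4 genes are a multicopy family best known from the burst of transcription after fertilization. Zscan4-ps1 was at 107, 85.0, 58.2 and 101 CPM without Cre and at 128, 138, 141 and 151 CPM with Cre (log2 fold change 0.64, SE 0.13, adjusted p = 0.00461). Zscan4d rose 2.79-fold, from between 5.73 and 8.20 CPM to between 13.6 and 32.4 CPM (adjusted p = 0.0156). Zscan4d was lost under 9 of 22 alternatives, among them DESeq2 (adjusted p = 0.134) and leaving out fl/del Spo11-Cre replicate 3, the library at 32.4 CPM (adjusted p = 0.253). Zscan4-ps1 was lost under 5 (highest adjusted p 0.314). The copies are nearly identical and the authors counted uniquely mapped reads, so the division of reads among family members is uncertain. Tuba3b, an alpha-tubulin with near-identical paralogs, is uncertain for the same reason.

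Among the genes that fell with Cre, Crnkl1 lay beside a called gene, as described above, and the mean levels of the 19 without Cre ran from 4.76 CPM (Lrmda) to 443 CPM (Crnkl1). Acsl3 (chr1:78657825-78707743), which activates long-chain fatty acids for lipid droplets, was at 152, 172, 162 and 166 CPM without Cre and at 93.9, 131, 93 and 116 CPM with Cre (log2 fold change -0.61, SE 0.10, adjusted p = 0.000362). Supt20, a subunit of the SAGA transcription coactivator, fell to 64.7% (adjusted p = 0.000922). Its highest fl/del value, 249 CPM, was that of replicate 3, against 152 to 185 CPM in the other 3 libraries. The ubiquitin ligase Nedd4l fell to 74.8% (369 ± 32.4 CPM against 276 ± 23.9 CPM, adjusted p = 0.00777), and the non-coding 2010001K21Rik to 72.0% (adjusted p = 0.00479). Ighg2b, annotated as an immunoglobulin constant region gene, was at 311, 286, 293 and 327 CPM without Cre and at 214, 244, 235 and 203 CPM with Cre (log2 fold change -0.46, SE 0.09, adjusted p = 0.00438). Of 22 alternatives, Nedd4l was lost under 6 (highest adjusted p 0.281), 2010001K21Rik under 4 (0.108) and Supt20 under 2 (0.38). Acsl3 (0.0625) and Ighg2b (0.157) were each lost under 1. The sum of the blood and immune cell markers was at most 13.9 CPM in the 8 libraries, and the source of the Ighg2b reads was not tested.

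The other named genes that fell were Cep89, a centriolar protein (64.6% of fl/del), Stat4, a cytokine-activated transcription factor (64.2%), Popdc2, a cAMP-binding membrane protein (64.7%), Adgra3, an adhesion receptor (69.5%), Slc25a13, the mitochondrial aspartate/glutamate carrier (56.7%), Gm30198, a non-coding RNA (70.8%), and Olfr1369-ps1 (15.9%). Their adjusted p-values lay between 0.00789 and 0.0441. Cep89 was called under 17 alternatives and the other 6 under 8 to 12. For Olfr1369-ps1 the fl/del values were 12.2, 1.01, 3.05 and 2.91 CPM, so 1 library set much of the mean.

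Genes of the spindle, to which KIF11 belongs, were examined as a list. Among 50 tested genes of kinesins and spindle assembly other than Kif11, none was called, and with 0.241% of all genes called so short a list would hold few or none at that share. The log2 fold change was below 0 in 36 and above 0 in 14, with a median of -0.04. At an unadjusted p under 0.05, 6 of the 50 were lower and none was higher, against 3.87% lower and 4.45% higher over all genes. Of 33 genes of the kinetochore and spindle checkpoint, 1 was called. This was Ndc80 (chr17:71496100-71526857), the subunit that binds microtubules at the outer kinetochore. It was at 218, 221, 195 and 192 CPM without Cre and at 156, 169.6, 152 and 133 CPM with Cre (log2 fold change -0.46, SE 0.10, adjusted p = 0.0143), and 14 of 22 alternatives called it. No gene was called, again against 0.241% of all genes, among 29 tested of meiotic recombination and synapsis, 31 of the DNA damage and p53 response, 30 of meiotic arrest and resumption and 11 of the interferon and nucleic acid response. Their median log2 fold changes were -0.10, 0.04, 0.0008 and -0.04. Of 20 stress and immediate early genes, Hspb1 was the one called, and the median was 0.08.

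All 13 protein-coding genes of the mitochondrial genome had a log2 fold change above 0, with a median of 0.48 against 0.0085 over all genes tested. At an unadjusted p under 0.05, 7 of them were higher, against 4.45% of all genes tested. Their summed level ran from 1243 to 1853 CPM without Cre and from 1735 to 2063 CPM with Cre, so the groups overlapped through fl/del replicate 2. Of the 13, 2 were called, against 0.241% of all genes tested. These were mt-Nd5 and mt-Nd6, both subunits of complex I, which overlap by 14 bp on opposite strands. mt-Nd5 was at 68.4, 104, 66.9 and 64.7 CPM without Cre and at 137, 145, 124 and 115 CPM with Cre (log2 fold change 0.75, SE 0.14, adjusted p = 0.00341). The called mt-Nd6 rose 2.07-fold, from between 7.22 and 18.5 CPM to between 21.5 and 29.7 CPM (adjusted p = 0.0132). The rRNA of the large mitochondrial ribosomal subunit, mt-Rnr2, was at 277, 338, 419 and 365 CPM without Cre and at 459.9, 596, 507 and 493 CPM with Cre (log2 fold change 0.54, SE 0.10, adjusted p = 0.00193). The call of mt-Nd6 was lost under 7 of 22 alternatives (highest adjusted p 0.502, without both fl/del libraries of 1 name prefix), that of mt-Nd5 under 4 (highest 0.43, DESeq2 among them), and that of mt-Rnr2 under 2 that each left out both libraries of a prefix (highest 0.143). All mitochondrial genes together, the rRNAs included, took 0.168% to 0.227% of the counts in fl/del and 0.235% to 0.269% in fl/del Spo11-Cre, without overlap. In wt/fl oocytes the same share was 0.182% to 0.281% without Cre and 0.183% to 0.255% with Cre, so those groups overlapped. The 15 oocyte markers had a median log2 fold change of -0.17, with 12 of them below 0 and none called. At an unadjusted p under 0.05, 7 of the 15 were lower, against 3.87% of all genes tested. The part of oocyte condition in the mitochondrial share was not tested.

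Whether the same genes changed in another background was examined in wt/fl oocytes, which keep a wild-type allele of Kif11, with Spo11-Cre (5 libraries) and without (4 libraries). These 9 libraries were not used in the fl/del comparison, although all 17 shared an estimate of the spread. Their names carried the letter A in all libraries without Cre and B or C in all with Cre. Here too an effect of whatever the letters mark and an effect of Cre cannot be told apart. In wt/fl 491 genes were called (2.19%), 194 higher (0.867%) and 297 lower (1.33%). Of the 54 genes called in fl/del, 16 were called in wt/fl, which is 29.6% of the former and 3.26% of the latter. Of these 16, 12 were higher in both, 3 were lower in both, and mt-Rnr2 changed in opposite directions. Over all 54 genes, 40 had the same sign in wt/fl, including the 15 called in the same direction in both. No share over all genes tested is set beside this count.

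The 3 neighbouring pairs were among the genes called in both backgrounds. In wt/fl, Rae1 was at 216, 205, 215 and 192 CPM without Cre and at 393, 329, 361, 356 and 320.3 CPM with Cre (log2 fold change 0.79, SE 0.09, adjusted p = 8.66e-09). Rbm38 rose by 0.88 on the log2 scale, Naa20 by 0.84, Cul1 by 0.72 and Ezh2 by 0.66, with adjusted p-values of at most 1.38e-06. For Rae1, Rbm38, Naa20, Cul1 and Ezh2 all 9 libraries with Spo11-Cre were above all 8 without, as were those of 0.107% of all genes tested. The same split divides the letters B and C from the letter A. The 4 fl/fl libraries with Gdf9-Cre or Zp3-Cre, which do not carry Spo11-Cre, had Rae1 between 179.9 and 200.4 CPM, Cul1 between 952 and 1356 CPM, Ezh2 between 304 and 354 CPM, Naa20 between 105 and 144 CPM and Rbm38 between 37.3 and 68.4 CPM. All of these were below the lowest library with Spo11-Cre. Only Rae1 stayed within the range of the 8 libraries without it. For Rbm38 all 4 fl/fl libraries were below the lowest of the 8, at 84.3 CPM. Some were below the lowest of the 8 for Cul1 (1228 CPM). Others were above the highest of the 8 for Ezh2 (310 CPM) or Naa20 (125 CPM). The difference between the effects in fl/del and wt/fl did not pass the test for any of the 6 genes, with values of 0.30 (SE 0.12) for Rae1, 0.10 (SE 0.17) for Rbm38, -0.07 (SE 0.15) for Naa20, -0.44 (SE 0.24) for Crnkl1, -0.23 (SE 0.10) for Cul1 and 0.03 (SE 0.11) for Ezh2.

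For Crnkl1 the libraries did not divide by Cre alone. In wt/fl without Cre it was at 516, 487, 156 and 158 CPM. The first 2 libraries share a name prefix and the last 2 share another, and the last 2 lay within the range of the 9 libraries with Cre, which was 139.9 to 175 CPM. With wt/fl Spo11-Cre the values were 145, 164, 158, 148 and 145 CPM, and in the 4 fl/fl libraries they were 535, 391, 482 and 579 CPM. When both wt/fl libraries with high Crnkl1 were left out, the log2 fold change in wt/fl was -0.03 (adjusted p = 0.957). Over the 21 libraries no value fell between 175 and 391 CPM. The 2 wt/fl libraries with low Crnkl1 had Naa20 at 105 and 122 CPM, inside the range of the libraries without Spo11-Cre.

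**Figure D4:**
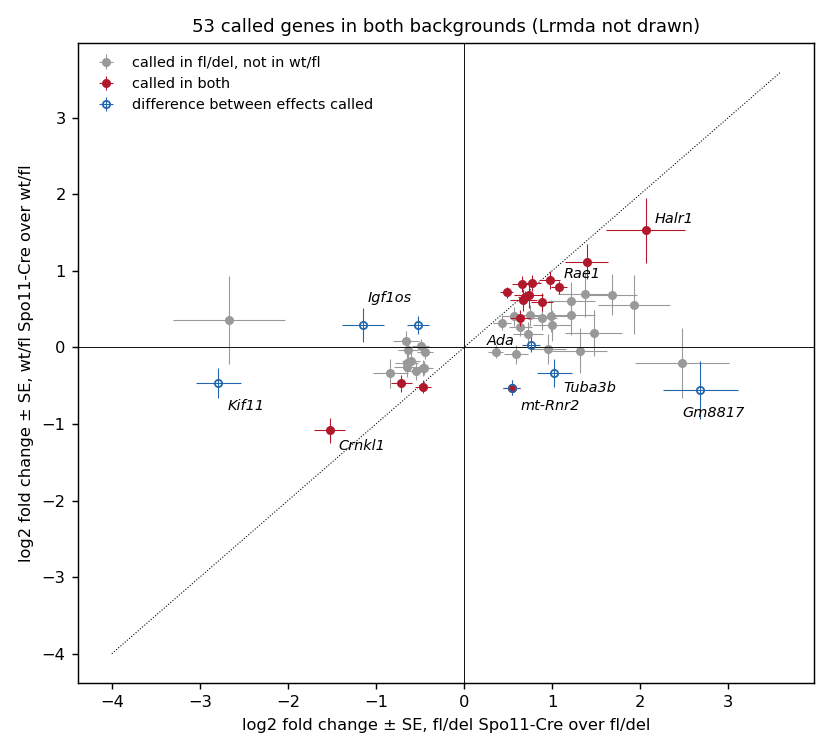
Log2 fold change with SE of 53 genes called in fl/del, for fl/del Spo11-Cre over fl/del (horizontal) and wt/fl Spo11-Cre over wt/fl (vertical), with a dotted line where both are equal. Red points were called in both, grey points in fl/del and not in wt/fl, and open blue points are genes whose 2 effects differed at an adjusted p under 0.05. The difference between the effects was 0.30 (SE 0.12) for Rae1 and 0.53 (SE 0.60) for Halr1, and neither passed the test. Kif11, Ada, Gm8817, Igf1os, Tuba3b and mt-Rnr2, whose differences passed, lie away from the line.

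Only a difference tested as such can set the backgrounds apart, and 23 of 22383 genes passed that test (0.103%). Of the 54 genes called in fl/del, 8 were among them. Over the alternatives the count of 23 moved between 2 and 138. Kif11 was one, with a log2 fold change of -0.47 (SE 0.20) in wt/fl and a difference of -2.32 (SE 0.32, adjusted p = 1.21e-05, called under 18 of 20 alternatives, highest adjusted p 0.085). The difference for mt-Rnr2 was 1.06 (SE 0.14, adjusted p = 5.71e-06, called under 21 of 21 alternatives). In wt/fl its level fell with Cre, from between 388 and 546 CPM to between 261 and 342 CPM. Ada did not change in the same way either. In wt/fl it was at 134, 131, 132 and 109 CPM without Cre and at 136, 137, 116, 121 and 127 CPM with Cre, and the difference was 0.73 (SE 0.14, adjusted p = 0.0197), which 13 of 21 alternatives called. For Gm8817 the wt/fl libraries were between 5.89 and 14.1 CPM without Cre and between 3.90 and 7.62 CPM with Cre, and the difference was 3.24 (SE 0.56, adjusted p = 0.00222, called under 18 of 21 alternatives). Lingo2, a neuronal leucine-rich repeat protein, was called in wt/fl (log2 fold change -0.88) and was at 46.9 ± 17.1 CPM without and 57.7 ± 15 CPM with Cre in fl/del, with a difference of 1.17 (SE 0.26, adjusted p = 0.0485, called under 8 of 21 alternatives).

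In some called genes single libraries or name prefixes decided the result. Lrmda, a gene linked to melanocyte pigmentation (chr14:22019712-23056085), was at 0, 0.119, 9.99 and 8.91 CPM in fl/del and at 0.0711, 0, 0 and 0 CPM in fl/del Spo11-Cre. The low and the high fl/del libraries belonged to different prefixes. In wt/fl without Cre it was at 0, 0, 4.09 and 7.73 CPM, again divided by prefix, and with Cre it was between 4.30 and 11 CPM. Without both fl/del libraries of the prefix that had Lrmda, the adjusted p was 0.94. Igf1os, annotated antisense to the growth factor gene Igf1, was at 39.0, 41.9, 46.4 and 40.4 CPM without Cre and at 10.2, 10.2, 12.8 and 44.4 CPM with Cre, so 3 of the 4 libraries with Cre were low and replicate 4 was at the level of fl/del. The strand is not marked, and its reads cannot be told apart from those of Igf1 where they overlap. Tuba3b was at 106, 54.9, 54.7 and 42.9 CPM without Cre and at 132, 97.2, 136 and 172 CPM with Cre, and the groups overlapped through fl/del replicate 1.

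**Figure D5:**
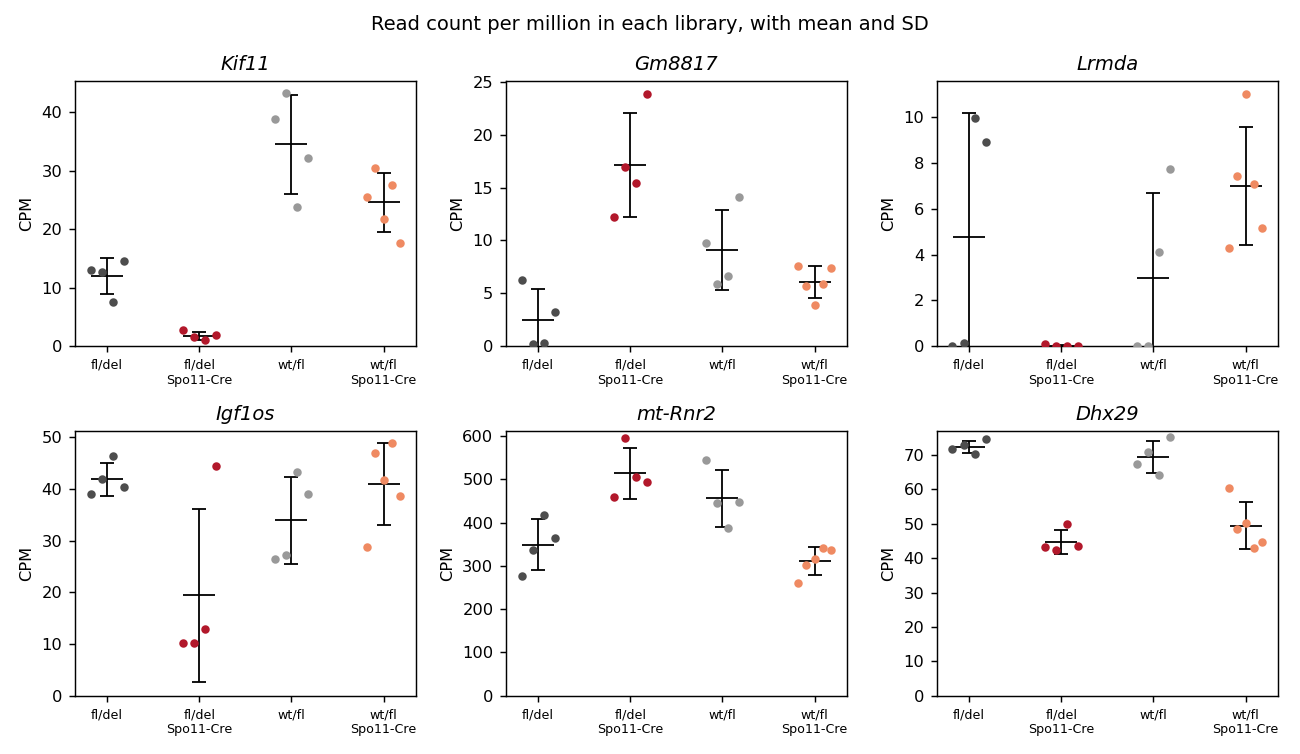
Level in CPM of Kif11, Gm8817, Lrmda, Igf1os, mt-Rnr2 and Dhx29 in each library (points), with the mean and SD (bars), in fl/del (4), fl/del Spo11-Cre (4), wt/fl (4) and wt/fl Spo11-Cre (5). Lrmda is near 0 or above 4 CPM within both groups without Cre, 1 fl/del Spo11-Cre library has Igf1os at the level of fl/del, and mt-Rnr2 moves in opposite directions in fl/del and wt/fl.

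Around Kif11 itself no other gene was called. Within 1000 kb of its start 21 genes were tested, and the 10 others with a mean log2 CPM above 1 had log2 fold changes between -0.18 and 0.21, with a median of -0.03.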

How the data were processed

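Each library held poly(A) RNA of 3 oocytes, amplified as full-length cDNA (13 cycles) and sequenced as paired-end reads of 150 bp. After trimming with fastp, the authors mapped the reads to GRCm38 in HISAT2 2.2.1, and featureCounts 2.0.3 (Subread) assigned those with a unique position to genes of Ensembl release 93, without strand. The deposited counts are whole numbers without normalization. Kif11 was counted by the authors over all exons, exon 1 or exon 22. In the set with all exons of Kif11 the counts of other genes were 1.96 times as high as in the set with exon 22 (median of 6318 genes with at least 100 counts), so levels were computed within each set. The authors also deposited TPM values, by a method not given in the sources used here, which were read but are not printed. Positions are from GENCODE M21 on GRCm38, in which 54165 of 54232 genes matched.

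R 4.3.3 and edgeR 4.0.16 (TMM, glmQLFit, glmQLFTest) fitted all 17 libraries of the Spo11-Cre background together, for genes with a count in at least 3 libraries, with a call at a Benjamini-Hochberg adjusted p under 0.05 over all genes. The SE is the absolute log2 fold change divided by the square root of F. CPM is scaled to the library total. Kif11 was also compared by two-sided exact permutation tests, and intervals and limits cover counting error only. The total counts of 7205010 to 17668498 per library limit the precision of low genes. The code was tested on simulated data. Alternatives were RLE library sizes, DESeq2 1.42.0, other filters on low counts, other sets of libraries, a replicate block, sums or a random block by name prefix (limma 3.58.1), and leaving out libraries. Tables and plots were made in Python 3.11.15 (scipy 1.17.1, pandas 2.3.3, matplotlib 3.10.9, numpy 2.4.6).

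The comparison, the gene lists and the rule for named genes were chosen with earlier results of these data known. Named genes are Kif11 and Spo11, up to 12 called genes per direction with the largest change, a mean count of at least 10 and no overlap between groups, called genes with another called gene within 500 kb, called members of the lists, tested genes within 250 kb of Spo11, called genes within 1000 kb of Kif11, up to 6 called genes per direction with the highest CPM, and up to 6 with the largest called difference between the effects in fl/del and wt/fl. Any other gene is said to be chosen after its value was seen.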

Additional observations from a re-analysis of the deposited data

Results flagged for a closer look

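Single libraries stood far from the other 3 of their group (Dixon's test at 95%) in 8 of 80 groups of named genes, of which chance flags about 5%. In fl/del Spo11-Cre replicate 3, Zscan4d was at 32.4 CPM, Dhx29 at 49.8 CPM, Olfr1369-ps1 at 0.960 CPM and mt-Nd6 at 21.5 CPM. In fl/del replicate 2, Krt25 was at 5.37 CPM and mt-Nd5 at 104 CPM. Lrmda was at 0.0711 CPM in fl/del Spo11-Cre replicate 1, where the other 3 libraries had no read, and Igf1os was at 44.4 CPM in fl/del Spo11-Cre replicate 4. The total count of fl/del replicate 3, 7205010, was also far below the other 3.

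For 8 named genes the effect of Spo11-Cre in fl/del differed from that in wt/fl in the test of the difference itself. The log2 differences were -2.32 for Kif11, 3.24 for Gm8817, -0.81 for Gm30198, 1.06 for mt-Rnr2, -8.80 for Lrmda, -1.44 for Igf1os, 1.36 for Tuba3b and 1.17 for Lingo2. Those of mt-Rnr2, Kif11, Gm8817 and Lrmda passed under 21 of 21, 18 of 20, 18 of 21 and 16 of 21 alternatives. Those of Tuba3b, Gm30198, Igf1os and Lingo2 passed under 11, 10, 9 and 8 of 21. That of Lrmda follows libraries of single name prefixes and that of Igf1os 3 of 4 libraries with Cre.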

How the results depend on the processing

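The number of called genes depended on the processing. In fl/del (35 higher, 19 lower) DESeq2 called 58 and 32, no filter on low counts 82 and 52, filterByExpr 23 higher, all 21 libraries 11 lower, sums by name prefix 11 lower, and voom with the prefix as a random block 17 higher. Leaving out 1 library, or both of a prefix, gave 16 to 65 higher and 6 to 29 lower. In wt/fl (194 higher, 297 lower) DESeq2 called 389 and 542, no filter 336 higher, all 21 libraries 80 and 172, and the voom fit 126 higher, and leaving out libraries gave 36 to 243 higher and 33 to 349 lower. The 23 differences between effects became 95 with DESeq2, 138 without a filter, 2 with filterByExpr, 4 with all 21 libraries, 11 with prefix sums, 5 with voom, 42 with the counts made together with exon 22, and 4 to 99 when libraries were left out. The cause was not tested. The replicate numbers did not pair the libraries (correlations of deviations between same-numbered libraries of 0.0493, 0.0248, -0.0342 and 0.0309). With a replicate block 90 genes were higher and 53 lower, all 54 called genes among them, and 96 differences passed. Kif11 over all exons stayed called at every alternative, with log2 fold changes from -3.11 to -2.54 when libraries were left out. Neither exon 1 (-3.86 to -2.08) nor exon 22 (-1.80 to -0.71) passed under any of 17 and 18 alternatives, and exon 1, counted in 17 libraries, could not be fitted with all 21. Of 880 other values of named genes under alternatives, 657 kept their side of the threshold and 223 of called genes missed it, none with a change of sign in a call. Exon 1 held at most 10 counts in each of the 8 libraries, which limits its precision.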
